A study of Mus musculus with 3 samples.

Results

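The regulators of G protein signaling examined here were 7 genes, Rgs1, Rgs2, Rgs10, Rgs14, Rgs16, Rgs18 and Rgs19, picked by symbol among the 32285 genes of the expression matrix. They were followed through 3 droplet-based single-cell RNA libraries, 1 per condition, of bone marrow derived macrophages (BMDMs) from female C3H/HeN mice aged 6 to 8 weeks. In the control library (Ctrl) the cells received PBS alone, and in the other libraries they were exposed to purified lipoproteins of Borrelia burgdorferi (BbLP), the agent of Lyme disease, at 1 µg/mL for 1 h (LP1) or for 4 h (LP4). Per the study's methods the PBS cells were collected at 4 h, so LP1 had no control of the same time. Marrow of several animals was cultured and cells of separate wells were combined before capture, so no value has a replicate. All intervals given are 95% intervals that cover counting error only, and no difference between conditions could be tested.

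A heterotrimeric G protein is switched on when a receptor loads its alpha subunit with GTP, and is switched off when the alpha subunit hydrolyses that GTP. RGS proteins bind the active alpha subunit and speed the hydrolysis. They so shorten signals from receptors coupled to the classes of alpha subunit they act on, chemokine and complement receptors among them. Rgs1, Rgs2, Rgs16 and Rgs18 are small proteins with little outside the RGS domain; Rgs2 prefers the Gq class of alpha subunit, and the other small members act on both the Gi and the Gq class. Rgs10 acts on the Gi class and is abundant in resting myeloid cells, Rgs14 is a multidomain member that also binds inactive Gi alpha through a GoLoco motif, and Rgs19 carries a cysteine string near its start and acts on Gi-class subunits.

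After cells with over 500 unique molecular identifiers (UMIs, each marking 1 captured RNA molecule), over 500 genes and under 5% mitochondrial UMIs were kept, 15806 of 16281 cells remained, from 4670 in LP4 to 6071 in Ctrl. The libraries held 35688939 (Ctrl), 52475723 (LP1) and 61402275 (LP4) UMIs, and the median per cell was 5133 (Ctrl), 9343 (LP1) and 11784 (LP4), so levels are given as counts per 1000000 UMIs (CPM) and shares of cells after every cell was thinned to 2000 UMIs. Macrophage RNA was present in each library, where all 10 macrophage markers reached 10 CPM, with a summed level of 11809 to 12331 CPM. Lyz2 alone gave 9209.5 CPM in Ctrl and 8716.5 CPM in LP4. In LP4 over Ctrl, 2 of the 10 were at least 2-fold higher and 2 lower, against 10.5% and 9.95% of the 8103 genes that reached 10 CPM in 1 library. Such sums do not show the label of each cell. Of the 10 neutrophil markers 3 reached 10 CPM, with a sum of 277 to 522 CPM that was highest in LP4, and lymphocyte markers summed to 1.56 to 3.08 CPM with Cd3e at 0 in each library. Between 3 and 9 cell barcodes were shared by any pair of libraries.

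Among the members, 3 lie in 1 cluster of genes. Rgs2 (ENSMUSG00000026360, chr1:143999338-144004161), Rgs1 (ENSMUSG00000026358, chr1:144242296-144249242) and Rgs18 (ENSMUSG00000026357, chr1:144752683-144775435) are on the minus strand of chromosome 1 of GRCm38 (mm10), and the 5 protein-coding genes in the 776098 bases from Rgs2 to Rgs18 were all RGS genes, Rgs13 and Rgs21 being the other two. Rgs16 (ENSMUSG00000026475, chr1:153740349-153745468, plus strand) is on the same chromosome, 8964914 bases beyond Rgs18. Rgs10 is at chr7:128373621-128418758 on the minus strand, Rgs14 at chr13:55369732-55384687 on the plus strand and Rgs19 at chr2:181688419-181693977 on the minus strand. A noncoding gene on the same strand, Gm15503, lies within Rgs10, so part of the reads of that interval may be assigned to either gene. An antisense gene, Gm28513, overlaps the end of Rgs16.

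Promoters, taken as 250 bases before to 50 bases after the annotated start, were at hand from RefSeq (GRCm38.p6) for 4 of the 7 members: Rgs2, Rgs10, Rgs16 and Rgs19. The promoters of Rgs2 and Rgs16 are shown because these genes had the lowest LP4 over Ctrl ratio and the highest one among the 7 members. Capitals mark letters that match a searched motif, on either strand.
Rgs2 promoter, chr1:144004100-144004399, minus strand: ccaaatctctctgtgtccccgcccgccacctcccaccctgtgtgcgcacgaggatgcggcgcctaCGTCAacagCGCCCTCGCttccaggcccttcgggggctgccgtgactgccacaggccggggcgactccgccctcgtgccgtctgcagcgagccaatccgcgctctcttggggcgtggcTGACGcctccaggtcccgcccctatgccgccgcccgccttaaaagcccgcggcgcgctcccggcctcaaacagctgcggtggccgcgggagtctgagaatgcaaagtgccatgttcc
Rgs16 promoter, chr1:153740103-153740402, plus strand: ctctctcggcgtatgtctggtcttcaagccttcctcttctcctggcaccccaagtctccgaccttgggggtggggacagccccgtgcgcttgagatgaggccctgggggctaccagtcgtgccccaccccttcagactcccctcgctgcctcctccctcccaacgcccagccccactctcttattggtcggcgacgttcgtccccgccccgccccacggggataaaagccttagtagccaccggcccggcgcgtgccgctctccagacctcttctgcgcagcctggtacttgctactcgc
The motifs searched were the AP-1 site TGANTCA, the cyclic AMP response element (CRE) TGACGTCA, its first letters TGACG as a partial element (which overlaps the CRE), the EGR site GCGNGGGCG, the interferon-stimulated response element GAAANNGAA and NF-kB. In the Rgs2 promoter the partial CRE was found on both strands, at bases -185 to -181 and -67 to -63 from the start, and an EGR site at -176 to -168 was found on the minus strand. The Rgs16 and Rgs10 promoters held none of the 6 motifs, and 1 of the 3 Rgs19 promoters held an EGR site. Over all 32851 promoters of this length, 20.8% held the partial CRE, 5.55% the EGR site, 7.81% the AP-1 site, 1.79% the CRE, 8.56% the interferon element and 4.51% the NF-kB motif. These are matches of letters only. The Rgs2 promoter had 70% G or C and the Rgs16 promoter 66%, against a median of 52.7% over all promoters.

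The members fell into a pair that was far lower in LP4 (Rgs1 and Rgs2), a pair that was higher in LP4 from a very low start (Rgs14 and Rgs16), and 3 genes that differed from Ctrl by less than 2-fold (Rgs10, Rgs18 and Rgs19). After 1 h every member was slightly higher in CPM than in Ctrl. Among the 8103 genes that reached 10 CPM in 1 library, 3834 were higher after 1 h. Of the 7 members, 5 reached 10 CPM in 1 library, the level set for counting genes past 2-fold, and Rgs14 and Rgs16 stayed just under it. In LP1 over Ctrl, 0 of the 5 were at least 2-fold higher and 0 at least 2-fold lower, against 0.765% and 0.506% of the 8103 genes at that level. In LP4 over Ctrl, 0 were at least 2-fold higher (10.5% of all genes) and 2 at least 2-fold lower (9.95% of all genes). In LP4 over LP1 the counts were again 0 higher and 2 lower, against 8.59% and 7.75% of all genes. The median log2 ratio of the 5 members was 0.19 after 1 h and -0.42 after 4 h relative to Ctrl, and -0.79 for LP4 over LP1, beside -0.02, -0.08 and -0.07 over all genes at that level. The LP4 comparisons share the LP4 library, and both comparisons with Ctrl share the Ctrl library.

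**Figure D1:**
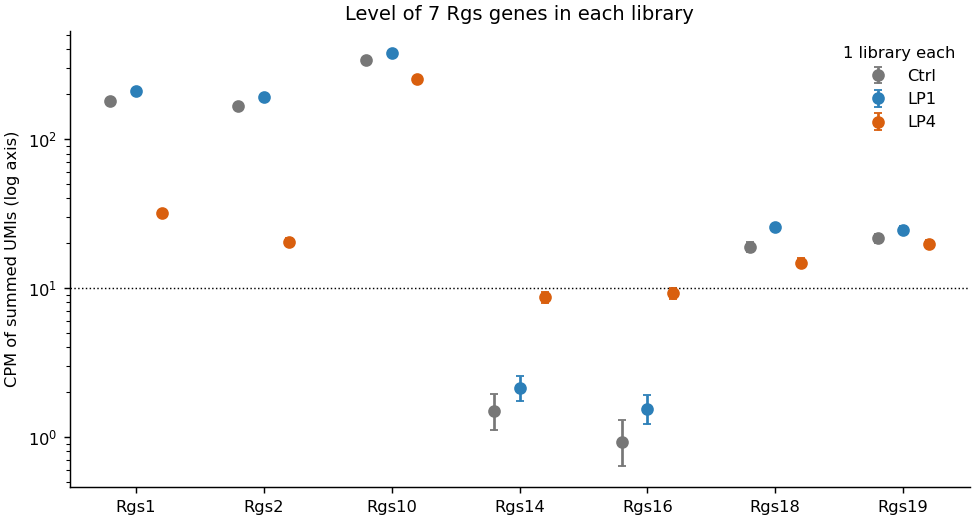
CPM of summed UMIs (log axis) of each member in the Ctrl, LP1 and LP4 libraries, 1 library each, with bars for the 95% Poisson interval of the count and a dotted line at 10 CPM. Rgs1 and Rgs2 stand between 167 and 211 CPM in Ctrl and LP1 and at 32.1 and 20.5 CPM in LP4, where Rgs14 and Rgs16 are at 8.66 and 9.23 CPM.

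Rgs1, an RGS protein known for limiting the response of leukocytes to chemokines, was at 180.4 CPM (176.0 to 184.8) without lipoprotein, 211 CPM (207 to 215) after 1 h and 32.1 CPM (30.7 to 33.6) after 4 h. The LP4 library was thus far below the other two, and the intervals of the 3 libraries did not overlap. The level in Ctrl was 5.62 times that in LP4, a log2 ratio of -2.49 (-2.56 to -2.42), and the LP1 over Ctrl ratio was 0.23 (0.18 to 0.27). Its LP4 over Ctrl ratio was the 79th lowest of the 8103 genes.

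Rgs2, an immediate early gene whose protein limits Gq signaling, was at 167 CPM (163 to 172) without lipoprotein, 191 CPM (187 to 194) after 1 h and 20.5 CPM (19.4 to 21.7) after 4 h. Its order of libraries was that of Rgs1, and also that of Rgs10, Rgs18 and Rgs19 below. The level in Ctrl was 8.16 times that in LP4, a log2 ratio of -3.03 (-3.12 to -2.94), and the level in LP1 was 9.29 times that in LP4. Its LP1 over Ctrl log2 ratio was 0.19 (0.14 to 0.23), and its LP4 over Ctrl ratio was the 43rd lowest of the 8103.

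Rgs18, a member best known from platelets and other myeloid cells and the third gene of the chromosome 1 cluster found here above 10 CPM, was at 18.9 CPM (17.5 to 20.4) without lipoprotein, 25.7 CPM (24.3 to 27.1) after 1 h and 14.8 CPM (13.9 to 15.8) after 4 h. Its order of libraries was that of Rgs1 and Rgs2, at a much smaller size, and also that of Rgs10 and Rgs19 on other chromosomes. Its log2 ratio was 0.44 (0.30 to 0.57) in LP1 over Ctrl, the largest early difference among the members above 10 CPM, and -0.36 (-0.50 to -0.21) in LP4 over Ctrl. Its LP4 over LP1 ratio was -0.79 (-0.92 to -0.67). Under TMM and median-of-ratios scaling the Rgs18 ratio in LP4 over Ctrl was -0.19 and -0.15, both outside the interval above. In LP4 over LP1 it was then -0.70 and -0.66. When cells were limited to under 3% mitochondrial UMIs, with medians of 1.97% (Ctrl), 2.84% (LP1) and 3.17% (LP4) before, the ratios were -0.84 in LP4 over Ctrl and -1.18 in LP4 over LP1, the latter past 2-fold. The other two genes of the cluster were almost silent, with 3, 0 and 0 UMIs of Rgs13 and 0, 2 and 1 UMIs of Rgs21 in Ctrl, LP1 and LP4.

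Rgs16, an inducible RGS protein acting on Gi and Gq, went the other way. Its 33 (Ctrl), 81 (LP1) and 567 (LP4) UMIs gave 0.925 CPM (0.636 to 1.30), 1.54 CPM (1.23 to 1.92) and 9.23 CPM (8.49 to 10.03). The LP4 level was 9.99 times the Ctrl level, a log2 ratio of 3.32 (2.81 to 3.87), and the LP1 over Ctrl ratio was 0.74 (0.14 to 1.37). Placed among the 8103 genes that reached 10 CPM, its LP4 over Ctrl ratio would be the 75th highest.

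Rgs14, the member with the GoLoco motif, had 53 (Ctrl), 112 (LP1) and 532 (LP4) UMIs, or 1.49 CPM (1.11 to 1.94), 2.13 CPM (1.76 to 2.57) and 8.66 CPM (7.94 to 9.43). The LP4 level was 5.83 times the Ctrl level, with a log2 ratio of 2.54 (2.14 to 2.98). In LP1 over Ctrl its ratio of 0.52 (0.04 to 1.02) was scarcely clear of 0.

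Rgs10, the constitutive member, was at 339 CPM (333 to 345) without lipoprotein, 379 CPM (374 to 384) after 1 h and 253 CPM (248.8 to 256.8) after 4 h. The libraries did not overlap in their intervals, but the differences were small, with log2 ratios of 0.16 (0.13 to 0.19) in LP1 over Ctrl and -0.42 (-0.46 to -0.39) in LP4 over Ctrl. The latter became -0.25 under TMM scaling and -0.22 under median-of-ratios scaling. Rgs19 was at 21.6 CPM (20.1 to 23.2) without lipoprotein, 24.7 CPM (23.4 to 26.1) after 1 h and 19.8 CPM (18.7 to 21.0) after 4 h. Its LP4 over Ctrl log2 ratio of -0.12 had an interval of -0.26 to 0.01 that held 0, and it became 0.04 under TMM scaling and 0.08 under median-of-ratios scaling.

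The makeup of the family differed at 4 h. The 7 members together gave 729 CPM (721 to 738) without lipoprotein, 835 CPM (827 to 843) after 1 h and 358 CPM (353 to 363) after 4 h. Rgs10 made up 46.4% of the members' UMIs without lipoprotein, 45.4% after 1 h and 70.6% after 4 h. Rgs1 and Rgs2 made up 24.7% and 22.9% in Ctrl and 8.97% and 5.73% in LP4. Rgs14 and Rgs16 were at 0.204% and 0.127% in Ctrl and 2.42% and 2.58% in LP4. These are shares of UMIs and are not scaled by transcript length.

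Shares of cells were also lower in LP4 for Rgs1 and Rgs2 and higher for Rgs14 and Rgs16. Thinning to 2000 UMIs left out 122 Ctrl, 13 LP1 and 45 LP4 cells that were shallower and kept 5949, 5052 and 4625. A UMI of Rgs1 was found in 26.2% (25.1 to 27.3) of thinned Ctrl cells, 29.0% at 1 h and 3.48% at 4 h, and a UMI of Rgs2 in 23.6% (22.5 to 24.7), 25.7% and 3.42%. Without thinning the shares were 46.0%, 61.5% and 12.9% for Rgs1 and 46.8%, 61.5% and 13.3% for Rgs2. Rgs10 was seen in 49.1%, 53.1% and 39.8% of thinned cells, although unthinned it was in more LP4 cells (89.4%) than Ctrl cells (80.3%), at more than double the depth. Rgs16 was seen in 0.151%, 0.139% and 1.45% of thinned cells, Rgs14 in 0.235%, 0.416% and 1.69%, Rgs18 in 3.04%, 4.65% and 2.64%, and Rgs19 in 4.24%, 4.59% and 3.72%. For Rgs16 and Rgs14 the Ctrl and LP1 shares rest on 7 to 21 cells and are near the limit of detection. Their LP4 shares rest on 67 and 78 cells.

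**Figure D2:**
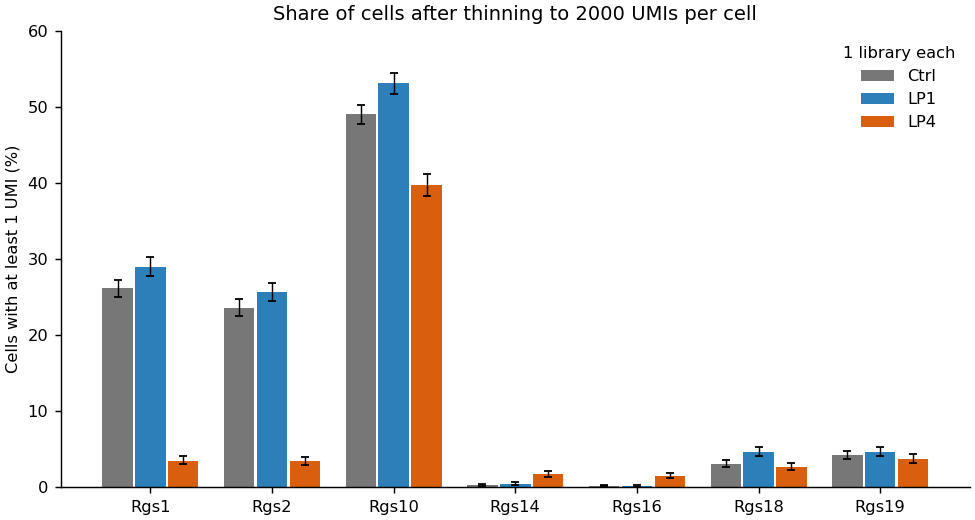
Share of cells with at least 1 UMI of each member after thinning to 2000 UMIs per cell, in the Ctrl, LP1 and LP4 libraries, with bars for the exact 95% binomial interval. Rgs1 and Rgs2 are found in 23.6% to 29.0% of Ctrl and LP1 cells and in 3.48% and 3.42% of LP4 cells, and Rgs10 is the most widely found member in each library.

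The members also differed in how their UMIs were spread over cells. For a gene at 1 uniform level the variance of thinned counts over their mean is near 1, and Rgs10 had 1.05 to 1.07. Rgs10 still differed between the clusters described below, at 432 CPM in B and 298 CPM in D of Ctrl. Its ratio therefore does not show 1 level. Rgs18 (0.990 to 1.03) and Rgs19 (0.996 to 1.04) were near 1 too. At their means of 0.027 to 0.048 thinned UMIs per cell, nearly all counts are 0 or 1. The ratio can then be near 1 for an uneven gene, so evenness is not read from it. Rgs1 had a ratio of 1.57 (Ctrl), 1.77 (LP1) and 2.59 (LP4), and Rgs2 had 1.34 (Ctrl), 1.498 (LP1) and 1.27 (LP4). Of the 1972 UMIs of Rgs1 in LP4, 1 cell alone held 142. Rgs14 and Rgs16 differed from each other in LP4, since the 532 UMIs of Rgs14 came at 1.14 per cell with any, and never over 4 in a cell, whereas those of Rgs16 came at 2.08 per cell with any, up to 14.

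Rgs1 and Rgs2 were met in the same thinned cell about as often as the product of their shares gives in Ctrl (382 cells against 367.5) and in LP1 (405 against 376). In LP4 both were found in 16 cells against 5.50, and in 13 against 5.08 without the stromal-like cells described below. Across cells their Pearson r was 0.02, 0.04 and 0.09, in counts where most cells hold 0 or 1 UMI, so nothing is read from it. Rgs14 and Rgs16 were found together in 0 of the 4625 LP4 cells, where 1.13 would follow from their shares.

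To see whether these differences held across the kinds of cell in the culture, cells were clustered on genes that varied by under 1.5 times between libraries, with every Rgs gene left out. Of the 9 clusters, 6 had at least 50 cells in each library. Clusters A (4518 cells, led by Hal and Fabp4), B (4282, Egr3, Ifitm1 and Apoe), C (3019, Ccnd1 and Fgf13) and D (2639, Mmp9, Ctsk and Mmp12) were macrophage-like. The leading genes of C also included the DNA replication genes Mcm3, Mcm6 and Pola1. Cluster E (946) carried macrophage markers too but was led by histone and mitosis genes such as Hist1h1b and Aspm. Cluster F (194) was named dendritic cell-like, from H2-Eb1, H2-Aa, H2-Ab1 and Cd74 among its leading genes. It carried macrophage markers as well, 6 of the 10 being found in at least 50% of its cells, as in D. A neutrophil-like cluster G (86 cells, Mpo and Elane), a stromal-like cluster H (66 cells, Mgp, Col1a2 and Col3a1) and an unnamed shallow cluster I (56) were too small to be compared in the same way. The clusters were rebuilt here and need not match those of the study.

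Rgs1 was lower in LP4 than in Ctrl in 6 of the 6 clusters, each by at least 2-fold, but not equally. In cluster B it was at 247 (Ctrl), 291 (LP1) and 12.9 CPM (LP4), which made the LP4 over Ctrl ratio -4.25 (-4.51 to -4.01). In cluster D it was at 111 (Ctrl), 149 (LP1) and 44.1 CPM (LP4), a ratio of -1.33 (-1.49 to -1.17). Cluster B thus had the highest Rgs1 level of the macrophage-like clusters in Ctrl and the lowest in LP4, and cluster D the lowest in Ctrl and the highest in LP4, with intervals of B and D that did not overlap in either library. The dendritic cell-like cluster F had 262 CPM in Ctrl and 78.6 CPM (59.7 to 101.6) in LP4.

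Rgs2 was likewise at least 2-fold lower in LP4 in 6 of the 6 clusters, with log2 ratios from -3.65 in B to -2.61 in D. In Ctrl it was lower in cluster B (112 CPM) than in C and D (201 and 199 CPM), where Rgs1 was higher in B than in C and D, while A and E had 162 and 155 CPM of Rgs2. After 1 h it was higher than in Ctrl in 5 of the 6 clusters, 4 of them with an interval above 0. Cluster B had 112 CPM in Ctrl and 107 CPM in LP1, a ratio of -0.07 with an interval of -0.20 to 0.07. Rgs1 was higher in LP1 in 6 of 6 clusters, with ratios of 0.13 to 0.43 and 5 intervals above 0.

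Rgs14 and Rgs16 had a higher LP4 level in the 5 clusters with UMIs in both libraries, cluster F having none of either gene in Ctrl. Rgs16 reached 19.0 CPM in C, led in part by replication genes, and 14.9 CPM in E, led by histone and mitosis genes. It was at 4.87 to 6.46 CPM in A, B and D. Its ratio was 5.12 (2.59 to 10.45) in B, where Ctrl held 1 UMI, and 2.74 to 3.36 in the other four. Rgs14 was more even, at 6.00 to 11.2 CPM in A to E of LP4, with ratios of 1.92 to 3.57.

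As a ratio of highest to lowest level, Rgs18 had the widest range over the macrophage-like clusters in Ctrl after Rgs16. It ran from 6.84 CPM in B to 27.5 CPM in C and 26.8 CPM in D. The lowest level of Rgs16, in B, rested on 1 UMI. Rgs18 was higher in LP1 than in Ctrl in 6 of 6 clusters, with 4 intervals above 0. It was lower in LP4 than in Ctrl in 5 of 6, with 4 intervals below 0, E having 23.8 CPM in Ctrl and 24.0 CPM in LP4. Cluster F held 4, 6 and 3 UMIs of Rgs18 in Ctrl, LP1 and LP4. Rgs10 was highest in B in Ctrl (432 CPM) and LP4 (271 CPM) among A to E, and was lower in LP4 in 6 of 6 clusters, with ratios of -0.67 to -0.27, never by 2-fold. Median-of-ratios scaling shifts all LP4 over Ctrl ratios up by 0.21, past the upper end of the Rgs10 interval in D (-0.35 to -0.19). Rgs19 was lower in LP4 in 5 of 6 clusters, with 1 interval that lay below 0.

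**Figure D3:**
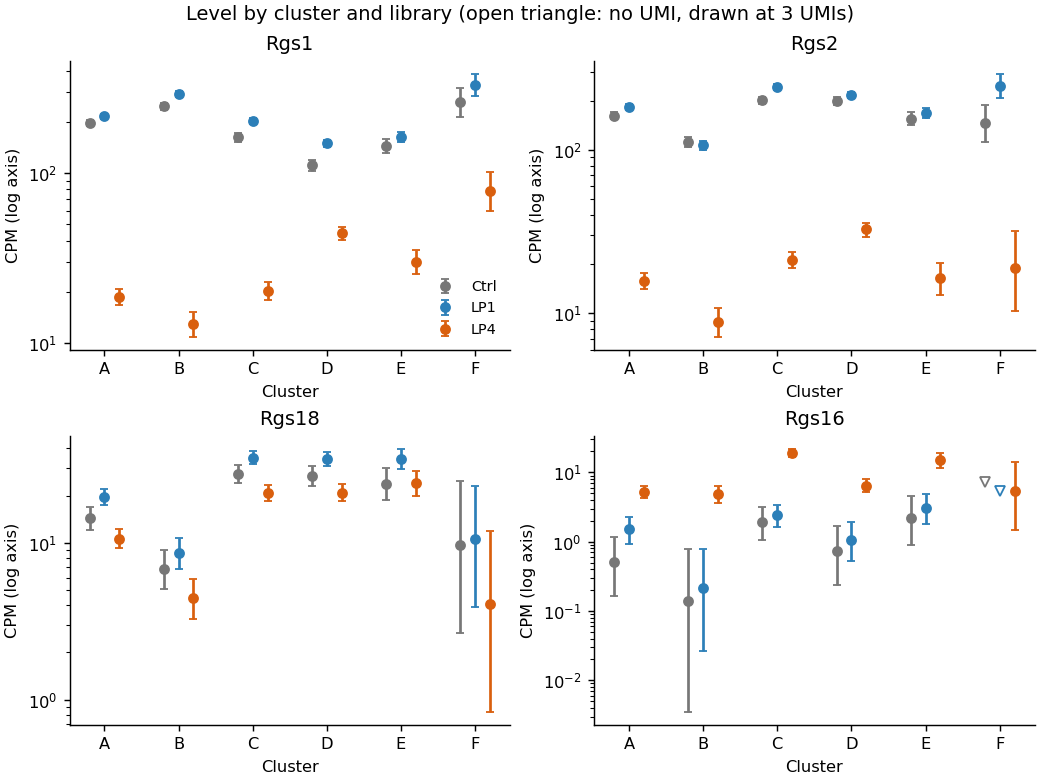
CPM (log axis) of Rgs1, Rgs2, Rgs18 and Rgs16 in clusters A to F, with 1 point per library and bars for the 95% Poisson interval; open triangles mark clusters with no UMI, drawn at the level of 3 UMIs. Rgs1 spans 111 to 262 CPM in Ctrl and 12.9 to 78.6 CPM in LP4, and the LP4 points of Rgs1 and Rgs2 lie below the Ctrl points in each cluster.

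Of the small clusters, the neutrophil-like cells had the least Rgs1, with 1 UMI in 32 Ctrl cells, 0 in 25 LP1 cells and 2 in 29 LP4 cells. None of the 21 thinned Ctrl cells held a UMI, beside 26.2% over all Ctrl cells. The exact interval allows a share of cells with a UMI of up to 16.1%. The median depth of its Ctrl cells was 2940 UMIs against 5133 over all. In LP4 their level was 7.86 CPM (0.952 to 28.4), which overlaps the 12.9 CPM of cluster B. With 0 of 29 thinned LP4 cells holding a UMI, the share could be up to 11.9%. At this depth the LP4 level of Rgs1 in cluster B could not be told from the level in neutrophil-like cells. Rgs2 in the same cells rested on 8 UMIs in Ctrl and 5 UMIs in LP4. These gave 76.5 CPM (33.0 to 150.7) and 19.6 CPM (6.38 to 45.8).

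The stromal-like cells, collagen-expressing cells that made up 0.412% of Ctrl, 0.395% of LP1 and 0.450% of LP4, had the most Rgs1 of any cluster. Their 25, 20 and 21 cells held 117, 237 and 462 UMIs of Rgs1, or 699, 1109 and 1335 CPM in Ctrl, LP1 and LP4. In LP4 these 21 cells alone gave 23.4% of the library's Rgs1 UMIs, against 1.82% in Ctrl and 2.14% in LP1. The sum and the typical cell differed: 3 of the LP4 cells, with 142, 109 and 82 UMIs, held 72.1% of the 462, and the share of cells with a UMI was 88% (Ctrl), 85% (LP1) and 52.4% (LP4). The median cell was at 715 (Ctrl), 786 (LP1) and 53.8 CPM (LP4), and without the 3 highest cells of each library the sums were 523, 645 and 475 CPM. Leaving the cluster out, Rgs1 in LP4 was at 24.7 CPM (23.5 to 26.0) in place of 32.1 CPM, and the LP4 over Ctrl log2 ratio was -2.85 in place of -2.49. Stromal markers summed to 5.35 (Ctrl), 6.31 (LP1) and 22.1 CPM (LP4) over all cells, and their part in the Rgs1 level was not tested beyond leaving the cluster out. Rgs2 was at 382, 650 and 252 CPM in the same cells. In LP4, 3 cells held 57 of its 87 UMIs. Without the 3 highest cells of each library Rgs2 was at 259.5 (Ctrl), 502 (LP1) and 110 CPM (LP4).

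**Figure D4:**
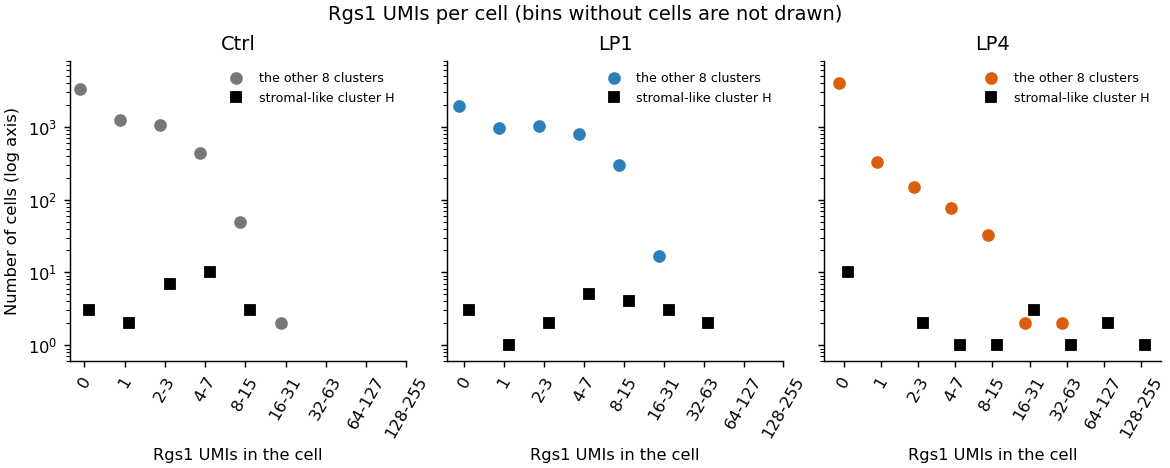
Number of cells (log axis) by the UMIs of Rgs1 in the cell, for the Ctrl, LP1 and LP4 libraries, with stromal-like cells of cluster H as black squares and cells of the other 8 clusters as circles. In LP4 the cells with 82, 109 and 142 UMIs are all stromal-like, and the highest cell outside that cluster has 47.

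The genes with the pattern nearest to Rgs1 over the 3 libraries, by the distance of the pair of log2 ratios over Ctrl among 3639 genes with at least 50 CPM, were Fat3 (distance 0.18), Adamts1 (0.19), Arl11 (0.19), Mylip (0.30) and Tnfsf9 (0.30). Nearest to Rgs2 were Pvt1 (0.10), Nrros (0.18), Mylip (0.26), Snx29 (0.34) and Dusp5 (0.36). Dusp5, a phosphatase that inactivates ERK in the nucleus, was at 236 (Ctrl), 227 (LP1) and 24.0 CPM (LP4), beside 167, 191 and 20.5 CPM of Rgs2. Across Ctrl cells the highest Pearson r was 0.11 for Rgs1, with Rasgef1b, followed by Cd86, Mndal, Dennd4a and Osbpl8, and 0.10 for Rgs2, with Lpl, followed by Ctsd, Cdk14, Fat3 and Lgals3. Correlations this weak in sparse counts from 1 library are no finding.

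A list of other RGS family genes held 19 in the matrix, and it does not cover every gene with an RGS-like domain. Of these 19, Axin1, a scaffold of the Wnt pathway, was the one that reached 10 CPM, at 40.9 (Ctrl), 39.7 (LP1) and 44.6 CPM (LP4). Rgs12 was at 5.58, 4.92 and 4.04 CPM and Rgs3 at 3.08, 3.13 and 2.41 CPM. No UMI of Rgs4, Rgs5, Rgs17 or Rgs9bp was found in any library.

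RGS proteins act on the alpha subunits of G proteins, which work with beta and gamma subunits. Of 7 alpha subunits at 10 CPM or more, 1 was at least 2-fold higher in LP4 than in Ctrl and 0 lower, with a median log2 ratio of 0.44. Over all genes at that level 10.5% were at least 2-fold higher and 9.95% lower. The higher alpha subunit was Gna13, at 242, 278 and 495 CPM in Ctrl, LP1 and LP4, a ratio of 1.03 (1.00 to 1.07). Gnai2, the most abundant alpha subunit and the main Gi alpha of leukocytes, was at 958, 896 and 892 CPM. Of 9 beta and gamma subunits 1 was higher and 0 lower, against the same shares of all genes. It was Gnb2, at 83.9 (Ctrl), 229 (LP1) and 274.5 CPM (LP4), and so already 1.45 higher on the log2 scale after 1 h. Gng5, the most abundant, was at 488, 428 and 499.9 CPM.

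Receptor kinases and arrestins also end receptor signaling. All 5 of them at 10 CPM or more lay below their Ctrl level in LP1 and in LP4, as did 4269 and 4386 of the 8103 genes at that level, with medians of -0.23 and -0.76. In LP4, 1 of the 5 was at least 2-fold lower, against 9.95% of all genes. The other two of the 7 listed, Grk3 and Grk4, stayed under 10 CPM and were higher in LP4, with log2 ratios over Ctrl of 0.98 (0.61 to 1.36) and 0.56 (0.27 to 0.85). The gene at least 2-fold lower in LP4 was Arrb1, beta-arrestin 1, at 76.4 (Ctrl), 58.6 (LP1) and 20.2 CPM (LP4), a ratio of -1.92 (-2.02 to -1.82). Grk2, the most abundant of them, was at 115, 98.2 and 81.6 CPM. Under median-of-ratios scaling all LP4 over Ctrl ratios shift by 0.21, less than the size of each of the 5 ratios at 10 CPM or more. Of 5 other regulators of alpha subunits, 1 was past 2-fold higher in LP4 and 0 past 2-fold lower, against 10.5% and 9.95% of all genes. It was Gpsm2, a GoLoco protein of spindle orientation (11.3, 14.7 and 41.2 CPM). Ccdc88a, the most abundant, was at 218, 298.5 and 280.4 CPM.

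The receptors upstream went both ways. Of 14 Gi-coupled receptors at 10 CPM or more, 4 were at least 2-fold higher in LP4 than in Ctrl and 1 lower, against 10.5% and 9.95% of all genes. The first count is partly set by the minimum level, since 3 of the 4 (Fpr2, Hcar2 and P2ry14) reached 10 CPM in LP4 alone. Fpr2, a formyl peptide receptor, was at 1.85 CPM in Ctrl and 41.9 in LP4, a ratio of 4.50, the chemokine receptor Ccr1 at 67.4 and 454, the metabolite receptor Hcar2 at 3.11 and 20.8, and P2ry14, a receptor for UDP-sugars, at 5.44 and 24.8. Gpr183, the oxysterol receptor, was at 61.9 (Ctrl), 50.2 (LP1) and 5.20 CPM (LP4), a ratio of -3.57. C3ar1, the most abundant in Ctrl and LP1, was at 415, 392 and 351 CPM. Of 4 Gq-coupled receptors 0 passed 2-fold, the highest level being 252.5 CPM of Adgre1 in LP4, an adhesion receptor whose coupling is not settled.

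The Gs-coupled receptors and enzymes of cyclic AMP, outside the Gi and Gq classes named above for the members, also went both ways. The prostaglandin E2 receptors were split, Ptger2 being at 5.63 CPM in Ctrl and 28.0 in LP4 and Ptger4 at 19.0 and 9.12. The adenosine receptor Adora2b was at 26.3 and 107 CPM in Ctrl and LP4. Pde7b, a cyclic AMP phosphodiesterase, was at 258 and 68.0 CPM, and Pde4d, the most abundant, at 1165 and 1164 CPM.

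**Figure D5:**
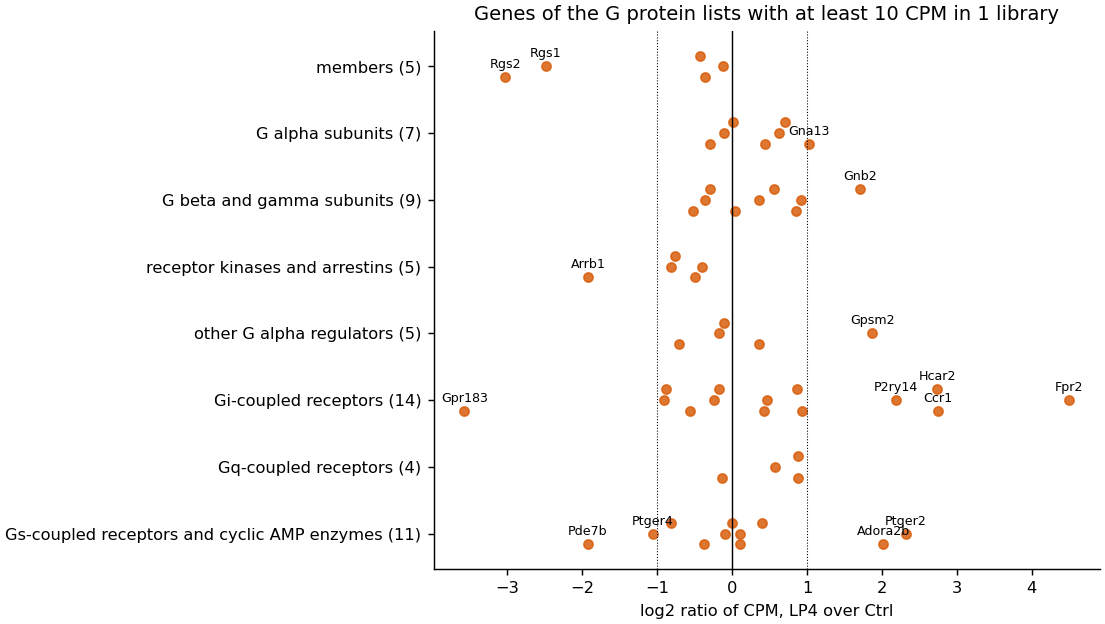
Log2 ratio of CPM in LP4 over Ctrl for listed genes that reached 10 CPM in 1 library, with the number of genes drawn in parentheses, dotted lines at 2-fold and names for genes past them. Rgs2 and Rgs1 are at -3.03 and -2.49, all 5 receptor kinases and arrestins lie below 0, and Gi-coupled receptors spread from -3.57 (Gpr183) to 4.50 (Fpr2).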

How the data were processed

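BMDMs were sequenced as 3 single-cell libraries (10x Genomics 3' chemistry, per the labels). The deposited values were whole-number UMI counts per gene and cell, which the authors made with Cell Ranger 7.1.0 on mm10, per the submitters' processing notes. The study gave a lower number of retained cells than its stated limits leave here. Its cluster annotation was not used here.

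Cells with over 500 UMIs, over 500 genes and under 5% mitochondrial UMIs were kept. UMIs were summed per library and given as CPM with exact Poisson intervals, ratios with exact conditional binomial intervals and shares with exact Clopper-Pearson intervals, all at 95% and for counting error only. With 1 library per condition nothing was tested, and cells were not used as replicates. Levels of 0 were read against 3 counts. Clustering used 2000 variable genes, centred within library, 30 principal components, 20 neighbours and Leiden resolution 0.5 (scanpy 1.11.5, leidenalg 0.10.2). Clusters were named from fixed marker lists. Doublets were not removed; Scrublet marked 0, 1 and 0 cells and so did not work, and an alternative left out the 5% with the highest scores. As scaling alternatives, TMM factors came from edgeR 4.0.16 and median-of-ratios size factors were computed directly, both on the summed counts. The ratio script was tested on simulated data. Gene positions came from GENCODE vM21. Genes outside the 7 members were named if past 2-fold in LP4 over Ctrl within a G protein list, most abundant in it, or among the 5 nearest to Rgs1 or Rgs2 by pattern or by r. The members and lists were chosen with earlier results of these data known. Part of the gene lists is not reported here.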

Additional observations from a re-analysis of the deposited data

Results flagged for a closer look

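Rgs1 in the stromal-like cluster H differed in direction from the other clusters. Its log2 ratio of LP4 over Ctrl was 0.93 (0.64 to 1.24), while 6 clusters had intervals below 0, and its ratio of LP4 over LP1 was 0.27 (0.04 to 0.50), again against 6 clusters below 0. The difference between clusters was not tested. The cluster had 25 Ctrl, 20 LP1 and 21 LP4 cells, and its LP4 sum rested on 3 cells with 333 of 462 UMIs. Without the 3 highest cells of each library the levels were 523 CPM in Ctrl, 645 CPM in LP1 and 475 CPM in LP4, so the higher sum in LP4 was not seen in the other cells.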

How the results depend on the processing

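No paired analysis was possible because each condition was 1 library, and for the same reason no replicate could be left out. The counts of members past 2-fold changed under 3 of 72 alternative values. With no minimum level, 2 members (Rgs14 and Rgs16) counted as at least 2-fold higher in LP4 over Ctrl and 2 in LP4 over LP1. Under a mitochondrial limit of 3%, 3 members (Rgs1, Rgs2 and Rgs18) in place of 2 were at least 2-fold lower in LP4 over LP1. At resolution 0.8, 10 and 10 of the 10 clusters compared had Rgs1 and Rgs2 lower in LP4 than in Ctrl, and at resolution 0.3 in 4 of 4. TMM and median-of-ratios scaling shifted LP4 over Ctrl ratios of all genes by 0.17 and 0.21. Of 210 alternative log2 ratios, 43 left their counting interval. No ratio whose interval excluded 0 changed sign, and Rgs19 in LP4 over Ctrl, whose interval held 0, ran from -0.22 to 0.08. Rgs1 in LP4 over Ctrl ran from -2.88 in macrophage-like clusters to -2.01 under a mitochondrial limit of 3%; the cause of the latter was not tested. Leaving out the stromal-like cluster was chosen after seeing the data. Of 84 alternative shares 62 moved out of their interval, and for 1 of these, Rgs2 in LP4, the thinning depth was the same. It was 3.42% (158 of 4625 cells), and 2.82% (138 of 4891) with no mitochondrial limit. The UMIs were drawn anew in that setting, so the move is not read as an effect of the added cells. The unreplicated design does not allow library and condition to be told apart, and Rgs14 and Rgs16, at 33 to 112 UMIs in Ctrl and LP1, are limited by depth.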
